A study of Mus musculus with 17 samples.

Results

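The septin genes of mouse fetal liver cells were described across 6 groups of RNA sequencing libraries. The members were the 9 genes named Sept1, Sept2, Sept4, Sept5, Sept6, Sept7, Sept8, Sept9 and Sept11, out of 13 genes with a septin name and 47069 genes in the overexpression table. The family was selected on the CPM values of miR-125b against sh-ctrl, in which Sept1 falls, so the contrast of miR-125b with its control is given for every septin as a description, with no p-value, and supports nothing. The cells came from mouse embryos of E13.5 or up to 1 day younger, and the strain expresses Cas9 and EGFP. All groups but WT carried a guide RNA against Gata1 (sgGata1), and these cells are called Gata1s in the study. Their second transgene was LUC (n = 3 libraries) or Arid3a (n = 3), both with doxycycline at 1 µg/mL for 48 h, or sh-ctrl (n = 3), shArid3a (n = 2, numbered 1 and 3) or miR-125b (n = 3), all with doxycycline at 1 µg/mL for 10 days. The WT libraries (n = 3) carried sgLuc and shLuc and had no doxycycline. The labels do not say how many embryos or cultures gave the libraries, so p-values measure the spread between these libraries, which may be technical.

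Septins are GTP-binding proteins that join into hetero-oligomeric rods and then into filaments and rings beneath the plasma membrane, where they act as scaffolds and diffusion barriers, among others at the cleavage furrow of dividing cells. Sequence similarity places them in 4 homology groups, and a filament takes members of different groups, with SEPT7 as the usual core subunit. In the blood lineages, septins are known from the cortex of lymphocytes, from the maturation of megakaryocytes and from the granule release of platelets. GATA1s is a shortened GATA1, a transcription factor of red cells and megakaryocytes, and is found in the megakaryoblastic leukemia of trisomy 21, miR-125b is a microRNA with a copy on human chromosome 21, and ARID3A is a DNA-binding transcription factor.

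The microRNA and the stretches of septin transcripts that match its seed are shown first, because the miR-125b group carries this microRNA. The labels give no arm, and the 5p arm is printed, from RefSeq (GRCm38.p6), with its seed, bases 2 to 8, in capitals. The transcript stretches are from GENCODE M21 (GRCm38), written 5′ to 3′ on the sense strand, with the match in capitals.
mmu-miR-125b-5p: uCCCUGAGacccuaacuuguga
Sept1 coding sequence, 8mer: cagtttgagcaatacCTCAGGGAtgagag
Sept1 coding sequence, 7mer: tgcagcagagccaggCTCAGGGcgagca
Sept8 3′ UTR, 8mer: aaggcacagacgagtCTCAGGGAgactct
Sept6 3′ UTR, 8mer: ccaagccttgggtcaCTCAGGGAtgcctc

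These letters were searched in the sense strand of annotated protein-coding transcripts as CTCAGGGA (8mer) and CTCAGGG (7mer to base 8 of the microRNA, which every 8mer also holds). The mature microRNA lies at chr9:41581940-41581961 (Mir125b-1) and at chr16:77646279-77646300 (Mir125b-2), both on the plus strand. The longest 3′ UTR of Sept1, with 296 bases, held neither the 8mer nor the 7mer. Of 804 genes with a 3′ UTR of like length (within 20%), 1.87% held an 8mer. The 2 Sept1 stretches lie in its coding sequence, at chr7:127216976-127217004 (8mer, in 5 of 5 coding transcripts) and chr7:127214774-127214801 (7mer, in 3), on the minus strand. A coding match was held by 9.9% of 2496 genes with a coding sequence of like length, and in the coding sequence of Sept6 and Sept8 there was 1 7mer each. The Sept8 stretch lies at chr11:53549364-53549392 on the plus strand and the Sept6 stretch at chrX:36911832-36911860 on the minus strand, each in 1 annotated transcript, with 3′ UTRs of 1106 and 1919 bases. Of genes with a longest 3′ UTR like theirs (3060 and 3141 bases), 12.0% and 11.7% held an 8mer. Across 11655 tested genes with an annotated 3′ UTR the share was 5.94%. Sept2, Sept4, Sept5, Sept7, Sept9 and Sept11 held neither the 8mer nor the 7mer in a coding sequence or 3′ UTR. Outside these parts, the 7mer was in 2 of 2 coding transcripts of Sept7 and 1 of 7 of Sept9. A shorter form, TCAGGGA, which lacks the match to base 8, was also searched in 3′ UTRs. Apart from the 8mers, it was found 1 time each in Sept2, Sept6, Sept8 and Sept11, and its share over all genes was not counted. A match here is a string of letters, not a measured site.

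Levels are given as CPM, counts scaled to a common library size, after TMM scaling within each table. Library totals were 31339238 to 38678649 counts in the table of LUC and Arid3a, 31992089 to 40859301 in the table of sh-ctrl, shArid3a and miR-125b, and 16362439 to 19212193 in the WT table. The target of the transgenes was checked first. Arid3a was at 67.3, 64.0 and 70.2 CPM in LUC and at 58.3, 74.3 and 80.1 CPM in the libraries labelled Arid3a. These groups overlapped (log2 fold change 0.08, SE 0.12, edgeR adjusted p = 0.737), so the gene's counts do not show the transgene. A transgene without counted mouse sequence and a label problem cannot be told apart here. The Arid3a gene was at 45.2, 56.3 and 57.2 CPM in sh-ctrl, at 20.4 and 18.9 in shArid3a (log2 fold change -1.43, adjusted p = 0.0368 by edgeR) and at 7.14, 9.75 and 10.0 CPM in miR-125b. Gata1, the target of the guide, was at 245 to 534 CPM in the Gata1s libraries and at 69.2 to 80.1 CPM in WT; counts over the whole gene do not show the edit. Replicate 1 of the libraries labelled Arid3a stood apart in the marker sums: its 12 megakaryocyte markers summed to 4982 CPM against 3118 and 3295 in the other two, its 5 progenitor markers to 876 against 441 and 483 CPM, its 9 mast cell and basophil markers to 180 against 2.47 and 46.6 CPM, and its 11 erythroid markers to 678 against 1417 and 1279 CPM. For Sept1 and Sept6, results are given below with and without this library. Without it, edgeR gave log2 fold changes against LUC of 0.61 for Sept5 (adjusted p = 0.0776) and 0.18 for Sept8 (adjusted p = 0.0735). For Sept11 the value was 0.20 (adjusted p = 0.0717 by edgeR). Megakaryocyte markers summed to 2959 to 4982 CPM in the 14 Gata1s libraries, and none of the 12 was at 0 in sh-ctrl, miR-125b or WT.

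The SEPT2 group holds Sept1, Sept2, Sept4 and Sept5, whose proteins can take the same place in the filament. Sept1, a septin known mainly from lymphocytes, is on chromosome 7 at 127214447 to 127233130, minus strand. In LUC, Sept1 was at 67.5, 61.6 and 57.8 CPM, and in the libraries labelled Arid3a at 65.3, 32.7 and 40.6 CPM. In sh-ctrl it was at 271, 250 and 317 CPM, in shArid3a at 279 and 249 CPM, and in miR-125b at 80.6, 74.5 and 93.9 CPM. In WT it was at 80.3, 67.9 and 56.8 CPM. The sh-ctrl and shArid3a libraries were high, all 5 above every library of the other 4 groups, and the remaining 12 libraries lay between 32.7 and 93.9 CPM. The mean of sh-ctrl was 4.48 times that of LUC, 5.37 times with TMM scaling over all 17 libraries and 4.96 times by library totals. No test was made of this difference, since table, time in doxycycline and second transgene change together there and cannot be told apart.

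**Figure D1:**
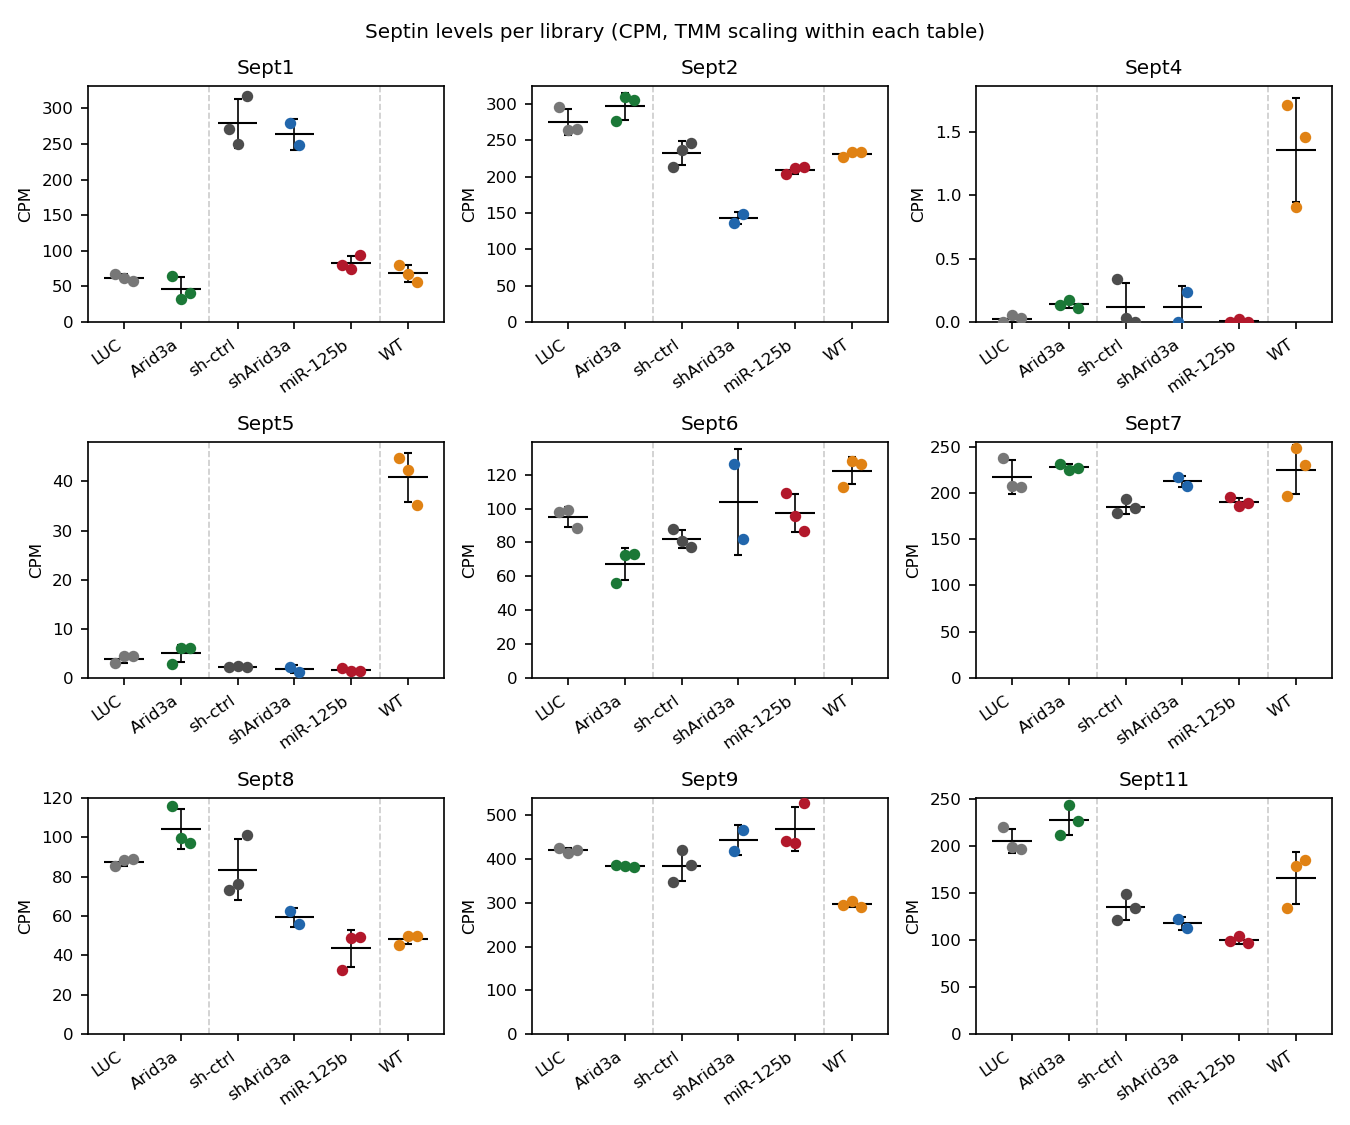
CPM (vertical axes, linear from 0) of each of the 9 septins in the 17 libraries, 1 point per library, with lines for the group mean and bars for ±1 SD (n = 3, shArid3a n = 2); dashed lines separate the tables. Sept1 is at 249 to 317 CPM in sh-ctrl and shArid3a and below 94 CPM elsewhere, and Sept5 is at 35.3 to 44.8 CPM in WT and below 7 CPM elsewhere.

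The fall of Sept1 with miR-125b, for which the family was selected, went from 279 ± 34.5 CPM (SD, n = 3) in sh-ctrl to 83.0 ± 9.94 CPM (SD, n = 3) in miR-125b, 3.37 times lower (log2 fold change -1.75, SE 0.15). It was larger in size than that of 93.9% of the 14004 genes tested in this table. Against shArid3a, which shares the miR-125b libraries with that contrast, Sept1 was 3.18 times lower (log2 fold change -1.67, SE 0.16). In shArid3a, Sept1 lay within the spread of sh-ctrl: the groups overlapped, with a log2 difference of -0.08 (SE 0.16, adjusted p = 0.771 by edgeR). This comparison shares the sh-ctrl libraries with the one used for the selection. Over the fits that each left out 1 library, the value lay between -0.18 and 0.01.

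Libraries labelled Arid3a and their LUC controls share no library with the selection. Sept1 was at 46.2 ± 16.96 CPM against 62.3 ± 4.90 CPM (SD, n = 3 each), and the groups overlapped. The log2 difference was -0.43 (SE 0.23), with an adjusted p of 0.336 by edgeR. The value turned on replicate 1 of the libraries labelled Arid3a, whose 65.3 CPM lay within the LUC range while the other two lay below it. Without that library the log2 fold change was -0.75 (adjusted p = 0.00164 by edgeR), in a fit that called 3198 of 13789 genes, 23.2% of those tested. The part of the marker differences of that library in this result was not tested.

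Markers of other cell types are set beside the Sept1 fall with miR-125b. In this comparison 24.4% of all genes were called and 12.2% fell. Of the megakaryocyte markers, 6 of 12 fell and 1 rose (Gp1bb) by the edgeR test, and their sum was 3226 to 4869 CPM in sh-ctrl and 2959 to 3814 CPM in miR-125b. Of the erythroid markers tested, 3 of 9 fell, and the sum of the 11 was 547 to 813 CPM in sh-ctrl and 352 to 374 CPM in miR-125b, with Slc4a1 at 0 in both. Neutrophil granule markers summed to 47.4 to 97.2 CPM in sh-ctrl and 80.2 to 150 CPM in miR-125b, where 2 of 6 tested rose. Most of the sh-ctrl sum was Prtn3, with means of 69.4 CPM in sh-ctrl and 63.4 CPM in miR-125b (edgeR adjusted p = 0.827). The genes that rose were Mpo, from 0.198 to 41.7 CPM on average (log2 fold change 7.73, edgeR adjusted p = 0.00162), and Elane, from 0.163 to 1.21 CPM (2.87, edgeR adjusted p = 0.0248). Mast cell and basophil markers summed to 6.51 to 89.6 CPM in sh-ctrl and 30.9 to 390 CPM in miR-125b, with medians of 79.3 and 35.4 CPM. Of these 9 genes edgeR called 2 higher and DESeq2 0, and the sum of 390 CPM is that of miR-125b replicate 1 alone. Lymphocytes are a known source of Sept1. The 9 markers of T and NK cells summed to 10.9 to 31.3 CPM in sh-ctrl and 16.1 to 47.8 CPM in miR-125b, with Cd3e, Cd2, Cd8a and Gzma at 0 in both groups, and the 8 B lymphoid markers summed to 0.464 to 1.16 and 1.05 to 1.74 CPM. In shArid3a the T and NK sum was 35.5 and 79.5 CPM, most of it Nkg7 at 47.1 CPM on average. Lck, a kinase of T cells, was at 7.70 ± 0.919 CPM (SD, n = 2) in shArid3a and 1.76 ± 0.5996 CPM (SD, n = 3) in miR-125b, and it fell between these groups (log2 difference -2.13, SE 0.36, adjusted p = 0.024 by edgeR), as 1 of the 3 T and NK markers tested, where 1.35% of all genes were called. Of the remaining lists, the hepatocyte marker Afp, the only 1 of 5 tested, rose in miR-125b against sh-ctrl. Its means were 0.657 CPM in sh-ctrl and 3.73 CPM in miR-125b (log2 fold change 2.50, edgeR adjusted p = 0.0141). No macrophage, progenitor, endothelial or stromal marker was called in that comparison. The part of these cell types in the Sept1 level was not tested. In bulk libraries, fewer cells of a type and less RNA per cell cannot be told apart.

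Sept2, a widely expressed septin that binds myosin II, was at 214, 236 and 246 CPM in sh-ctrl, at 137 and 148 CPM in shArid3a and at 203, 211 and 212 CPM in miR-125b. The shArid3a libraries were the lowest of all 17. The difference of shArid3a from sh-ctrl was -0.70 on the log2 scale (SE 0.13, unadjusted p = 0.000289) and missed the threshold after adjustment over all genes (edgeR adjusted p = 0.0989), although the groups did not overlap. Among the alternative fits it passed only with library totals (adjusted p = 0.0473 by edgeR), without the low-count filter (adjusted p = 0.0101 by edgeR) and with DESeq2 (adjusted p = 8.41e-05). These fits called 0.143%, 5.7% and 11.4% of all genes, and with library totals the median log2 fold change of all genes was -0.22. With the replicate block the edgeR adjusted p was 0.117, and without sh-ctrl replicate 3 it was 0.293. Against shArid3a, Sept2 in miR-125b differed by 0.55 (SE 0.13, edgeR adjusted p = 0.0744, DESeq2 adjusted p = 0.00229), again with no overlap. In LUC it was at 296, 264 and 265 CPM, in the libraries labelled Arid3a at 276, 310 and 305 CPM (log2 fold change 0.11, SE 0.08, edgeR adjusted p = 0.456), and in WT at 227, 233 and 234 CPM.

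Sept5, a septin known for its place on platelet granules and nerve terminals, was near the bottom in every Gata1s group and high in WT. It was at 3.02, 4.45 and 4.48 CPM in LUC, at 2.92, 6.03 and 6.05 CPM in the libraries labelled Arid3a and at 2.26, 2.52 and 2.27 CPM in sh-ctrl. In shArid3a it was at 2.34 and 1.24 CPM, in miR-125b at 2.01, 1.53 and 1.36 CPM, and in WT at 44.8, 42.3 and 35.3 CPM. The WT mean was 10.2 times that of LUC and 17.4 times that of sh-ctrl, 10.0 and 14.2 times with scaling over all libraries. The comparisons within tables gave log2 fold changes of 0.33 (SE 0.33) for Arid3a against LUC, -0.39 (SE 0.42) for shArid3a against sh-ctrl and -0.53 (SE 0.37) for miR-125b against sh-ctrl. Between miR-125b and shArid3a the log2 difference was -0.13 (SE 0.41), and without shArid3a replicate 1 it was 0.39.

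In GENCODE M21, Sept5 lies at chr16:18620502-18629954 and shares 1902 bases of its span, exons included, with Gp1bb (chr16:18620317-18622403) on the same minus strand. Gp1bb encodes the beta chain of the platelet glycoprotein Ib receptor. The Gp1bb levels are set beside those of Sept5. Gp1bb was at 53.7, 67.4 and 66.8 CPM in LUC, at 52.8, 68.5 and 55.1 CPM in the libraries labelled Arid3a, at 29.2, 33.4 and 24.5 CPM in sh-ctrl, at 23.0 and 23.0 CPM in shArid3a, at 42.2, 51.5 and 53.4 CPM in miR-125b and at 31.3, 25.2 and 18.1 CPM in WT. It rose with miR-125b against sh-ctrl (log2 fold change 0.76, SE 0.16, edgeR adjusted p = 0.0115) and against shArid3a (1.09, SE 0.18, edgeR adjusted p = 0.0221). From LUC to sh-ctrl and from sh-ctrl to shArid3a the means of both genes were lower. From sh-ctrl to miR-125b the mean of Sept5 was lower and that of Gp1bb higher. Both in the libraries labelled Arid3a and in WT, the mean of Sept5 was above that of LUC and the mean of Gp1bb below it. How reads of the shared exons were assigned is not given in the sources used here, and the Sept5 length of 2127 bases in the tables is below the 3915 bases of its GENCODE M21 exons, so the Sept5 values are uncertain to that extent. How many bases the counted form of Sept5 shares with Gp1bb was not determined.

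**Figure D2:**
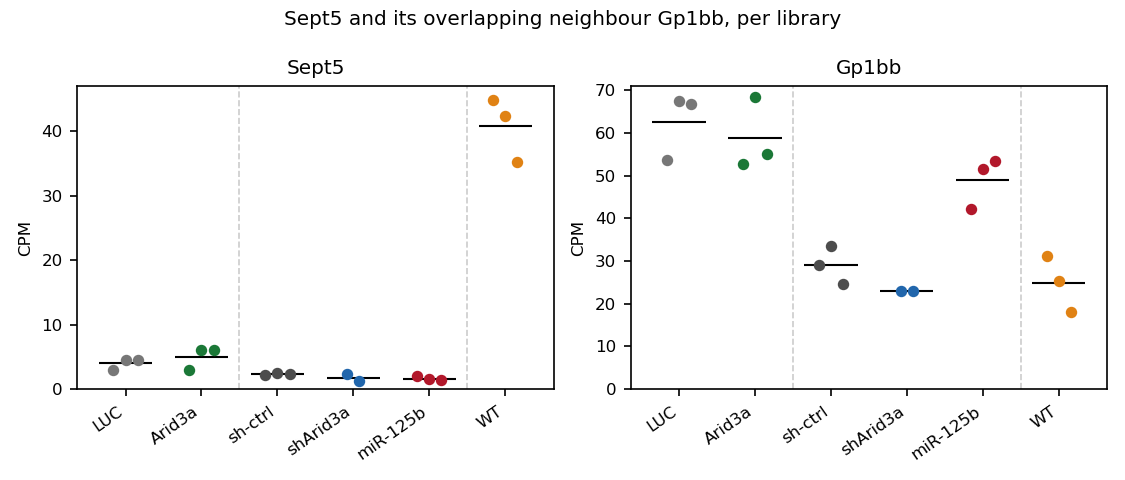
CPM (vertical axes, linear from 0) of Sept5 and of Gp1bb, which overlaps it in GENCODE M21, in the 17 libraries by group, 1 point per library with a line at the mean. Dashed lines separate the tables. Sept5 is highest in WT at 35.3 to 44.8 CPM, where Gp1bb is at 18.1 to 31.3 CPM, within or below its levels in the Gata1s groups.

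Sept4, a septin known from the sperm annulus and from apoptosis, was hardly detected. It had 0, 2 and 1 counts in LUC, 5, 6 and 4 in the libraries labelled Arid3a, 12, 1 and 0 in sh-ctrl, 0 and 8 in shArid3a, and 0, 1 and 0 in miR-125b. In WT it had 28, 17 and 28 counts in libraries of at most 19212193 counts. It did not pass the filter on low counts in either table tested, so 8 of the 9 septins were tested, and no fold is given. Its annotated span overlaps Gm11492 on the same strand.

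WT libraries differed from the Gata1s libraries in other cell types too. Neutrophil granule markers summed to 9161 to 11160 CPM in WT and to at most 150 CPM in the Gata1s libraries, macrophage markers to 347 to 426 CPM in WT, and megakaryocyte markers to 1496 to 1691 CPM in WT. Genotype, doxycycline, second transgene and table change together between WT and the others and cannot be told apart, so the septin values in WT are side-by-side values without a test.

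Of the septins described here, the SEPT6 group holds Sept6, Sept8 and Sept11, which can replace each other next to SEPT7 in the rod. Sept6, the member found in the classical SEPT2, SEPT6 and SEPT7 complex, was at 98.0, 99.0 and 88.5 CPM in LUC and at 56.1, 72.4 and 73.1 CPM in the libraries labelled Arid3a. All 3 latter libraries were below all 3 LUC libraries. The log2 fold change was -0.50 (SE 0.11, unadjusted p = 0.00281), and it missed the threshold after adjustment (edgeR adjusted p = 0.0917). DESeq2 called it (adjusted p = 0.00409), as did edgeR without replicate 1 of the libraries labelled Arid3a (-0.38, adjusted p = 0.0061). These fits called 10.1% and 23.2% of all genes. With the replicate block the edgeR adjusted p was 0.205, and leaving out any other library gave 0.182 to 0.375 by edgeR. In the other table Sept6 was at 87.8, 81.1 and 77.5 CPM in sh-ctrl, at 126 and 81.8 CPM in shArid3a and at 109, 95.5 and 86.9 CPM in miR-125b, with overlap throughout. The fitted differences from sh-ctrl were 0.34 (SE 0.19, edgeR adjusted p = 0.271) for shArid3a and 0.24 (SE 0.17) for miR-125b. The shArid3a value is from 2 libraries that lie far apart, and without replicate 1 it was 0.00. WT was at 113, 128 and 126 CPM.

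Sept8, a septin known from vesicle traffic at nerve terminals, was at 73.1, 76.2 and 101 CPM in sh-ctrl. It was at 62.7 and 56.0 CPM in shArid3a and at 32.7, 48.8 and 49.3 CPM in miR-125b. The 3 groups followed in that order without overlap. The log2 fold change was -0.94 (SE 0.19) in miR-125b against sh-ctrl, -0.49 (SE 0.21, unadjusted p = 0.0401, edgeR adjusted p = 0.176) in shArid3a against sh-ctrl and -0.44 (SE 0.21, unadjusted p = 0.0562, edgeR adjusted p = 0.357) in miR-125b against shArid3a. In LUC it was at 85.4, 88.6 and 89.2 CPM and in the libraries labelled Arid3a at 116, 99.98 and 96.9 CPM, higher in all 3 (0.25, SE 0.08, unadjusted p = 0.018, edgeR adjusted p = 0.148). WT was at 45.3, 49.9 and 50.004 CPM.

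Sept11, which takes part in actin-rich structures and phagocytosis, was at 122, 149 and 134 CPM in sh-ctrl, at 123 and 113 CPM in shArid3a and at 98.7, 104 and 97.0 CPM in miR-125b. The miR-125b libraries were below all others of the table. The log2 fold change in miR-125b against sh-ctrl was -0.43 (SE 0.12), in shArid3a against sh-ctrl -0.19 (SE 0.13, edgeR adjusted p = 0.383) and in miR-125b against shArid3a -0.24 (SE 0.13, edgeR adjusted p = 0.457). In LUC it was at 221, 199 and 197 CPM, in the libraries labelled Arid3a at 212, 244 and 227 CPM (0.15, SE 0.08, edgeR adjusted p = 0.336), and in WT at 134, 179 and 186 CPM.

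Sept7, the only member of its homology group and the core unit of the filament, had the narrowest range relative to its level. Its 17 values ran from 178 to 249 CPM. In sh-ctrl it was at 178, 193 and 184 CPM, in shArid3a at 217 and 208 CPM and in miR-125b at 195, 186 and 189 CPM. The shArid3a libraries lay above the others of the table, but the difference from sh-ctrl of 0.20 (SE 0.12) did not pass (edgeR adjusted p = 0.329). Between miR-125b and sh-ctrl the log2 difference was 0.04 (SE 0.11), and it turned to -0.15 with library totals. Its level was 216.9 ± 18.2 CPM in LUC and 228 ± 3.48 CPM in the libraries labelled Arid3a (SD, n = 3 each; log2 fold change 0.07, SE 0.08, edgeR adjusted p = 0.624).

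Sept9, a septin of octameric rods that links to actin stress fibres and microtubules, had the most counts of the family in each of the 17 libraries. In LUC it was at 425, 415 and 420.3 CPM and in the libraries labelled Arid3a at 387, 385 and 382 CPM. The groups did not overlap, with a log2 difference of -0.13 (SE 0.05, unadjusted p = 0.0462, edgeR adjusted p = 0.226). In sh-ctrl it was at 349, 421 and 387 CPM, in shArid3a at 419 and 467 CPM and in miR-125b at 441, 437 and 528 CPM. The miR-125b libraries lay above all sh-ctrl libraries (0.28, SE 0.14), while shArid3a overlapped sh-ctrl (0.20, SE 0.15, edgeR adjusted p = 0.428). WT had the lowest levels, 296, 305 and 290.2 CPM.

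**Figure D3:**
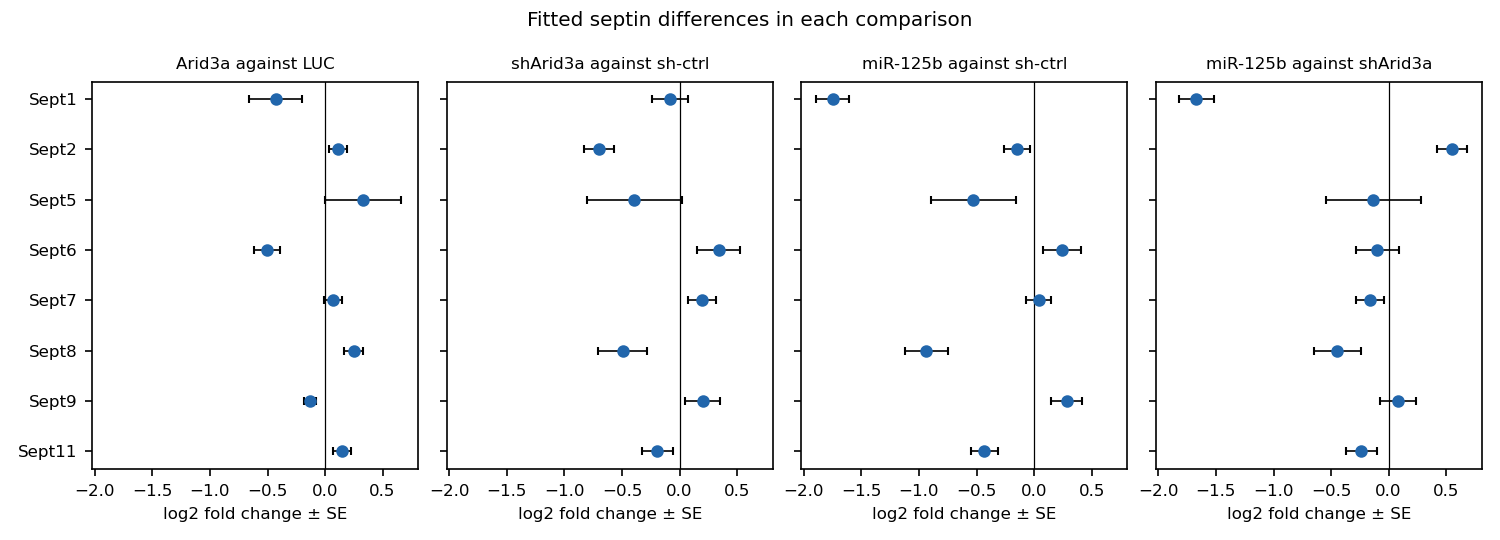
Fitted log2 fold change (horizontal axes) of the 8 tested septins in the 4 comparisons, with bars of ±1 SE from the edgeR fit; the vertical line marks 0. Sept1 lies at -1.75 and -1.67 in the comparisons with miR-125b and at -0.08 with shArid3a, and the other septins lie between -0.94 and 0.55.

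Counted over the family, edgeR called 0 of 8 septins for the libraries labelled Arid3a against LUC, where it called 0% of all 13495 genes. At an unadjusted p under 0.05 there were 3 (Sept6, Sept8 and Sept9), against 21.4% of all genes, and DESeq2 called 1 (Sept6), where it called 1359 genes, 10.1% of those fitted (10852 of 13495 had an adjusted p). The groups did not overlap in 3 of 8, against 27.6% of all genes. The median log2 fold change was 0.09 for the septins and 0.01 for all genes. For shArid3a against sh-ctrl, edgeR called 0 of 8 septins, against 0.0857% of 14004 genes. At an unadjusted p under 0.05 there were 2 (Sept2 and Sept8), against 25.8% of all genes, DESeq2 called 1 (Sept2), against 11.4% of all genes, and 3 of 8 did not overlap, against 43.9% of all genes. The medians were -0.14 for the septins and -0.02 for all genes.

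In miR-125b against sh-ctrl, the contrast used for the selection, 3 of 8 septins were lower and under the threshold set for all genes (Sept1, Sept8 and Sept11), where 24.4% of all genes were called and 12.2% fell, and nothing is read from this count. Sept11 was under it in only 1 of the 6 fits that each left out 1 library. Groups did not overlap for 6 of 8 septins, against 44.9% of all genes, and the medians were -0.29 and -0.03. In miR-125b against shArid3a edgeR called 1 of 8, Sept1, against 1.35% of all genes, and DESeq2 called 2 (Sept1 and Sept2), against 5.26%. The groups did not overlap for 5 of 8, against 29.8% of all genes, and the medians were -0.15 and -0.01. These comparisons share libraries with the selection, so the Sept1 call adds no independent evidence.

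Levels of different septins were compared per kb of the gene length given in the tables. In LUC the order was Sept7 at 85.5 CPM per kb, Sept9 at 55.5, Sept2 at 34.5, Sept1 at 22.5, Sept11 at 21.7, Sept8 at 14.4, Sept6 at 9.63, Sept5 at 1.87 and Sept4 at 0.00794. Only Sept1 and Sept11 overlapped as neighbours in that order. The place of Sept7 rests on its length: the tables give it 2538 bases, while its GENCODE M21 exons sum to 11631 bases, and for all septins but Sept5 and Sept7 the tables give the full exon length. With the exon length for all 9, Sept7 in LUC was at 18.6 CPM per kb, behind Sept9, Sept2, Sept1 and Sept11. In sh-ctrl Sept1 stood first at 101 CPM per kb, ahead of Sept7 at 72.9, Sept9 at 51.0 and Sept2 at 29.1, and neighbours overlapped only for Sept11 at 14.2 and Sept8 at 13.7. In shArid3a Sept1 also stood first at 95.5 CPM per kb, and in miR-125b it came after 2 others at 30.0, behind Sept7 at 74.9 and Sept9 at 62.0. In WT Sept7 came first at 88.6 CPM per kb (19.3 with its exon length, behind Sept9, Sept2 and Sept1), and the ranges of Sept2 at 29.0, Sept1 at 24.7, Sept5 at 19.2 and Sept11 at 17.5 overlapped from neighbour to neighbour. The place of Sept5 in WT rests on its length too. With the exon length for all 9 it was at 10.4 CPM per kb and with the longest transcript at 11.1, at rank 7 in both orders. In the libraries labelled Arid3a Sept7 was at 89.7 CPM per kb (19.6 with its exon length) and Sept1 was sixth at 16.7. With the longest annotated transcript, Sept9 came before Sept7 in all groups but WT (108.6 and 85.6 CPM per kb in LUC), while Sept1 was first in sh-ctrl and shArid3a with each of the 3 lengths (188 and 178 CPM per kb with the longest transcript).

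The summed level of the 9 septins per kb was 246 ± 12.6 CPM per kb in LUC, 245 ± 3.74 in the libraries labelled Arid3a, 291 ± 16.5 in sh-ctrl, 289 ± 9.74 in shArid3a (n = 2), 221 ± 10.0 in miR-125b and 239 ± 12.0 in WT (SD, n = 3 otherwise). Sept1 made up 34.6% of that sum in sh-ctrl (31.2 to 37.2%), 33.0% in shArid3a (31.9 to 34.1%) and 13.5% in miR-125b (12.6 to 14.6%). Its share was 9.17% in LUC, 6.81% in the libraries labelled Arid3a and 10.4% in WT. With the longest transcript as length the shares were 38.7% in sh-ctrl, 37.6% in shArid3a, 15.6% in miR-125b and 10.7% in LUC. The SEPT2 group as a whole held 45.0% in sh-ctrl and 25.7% in miR-125b, the SEPT6 group 12.4% (12.2 to 12.6%) and 11.7 to 13.4%, the SEPT7 group 25.1% and 33.9%, and the SEPT9 group 17.5% and 27.9%. With the exon length for all 9 the Sept1 shares were 43.2% in sh-ctrl, 42.8% in shArid3a, 18.5% in miR-125b and 12.7% in LUC, and Sept7 held 6.8% in sh-ctrl and 10.1% in miR-125b, so the size of each share depends on the length used. The homology groups are counted by their members among these 9 septins only, and other genes with a septin name are not in the sum. Shares add up to 100%, so the other groups' shares move when Sept1 does.

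**Figure D4:**
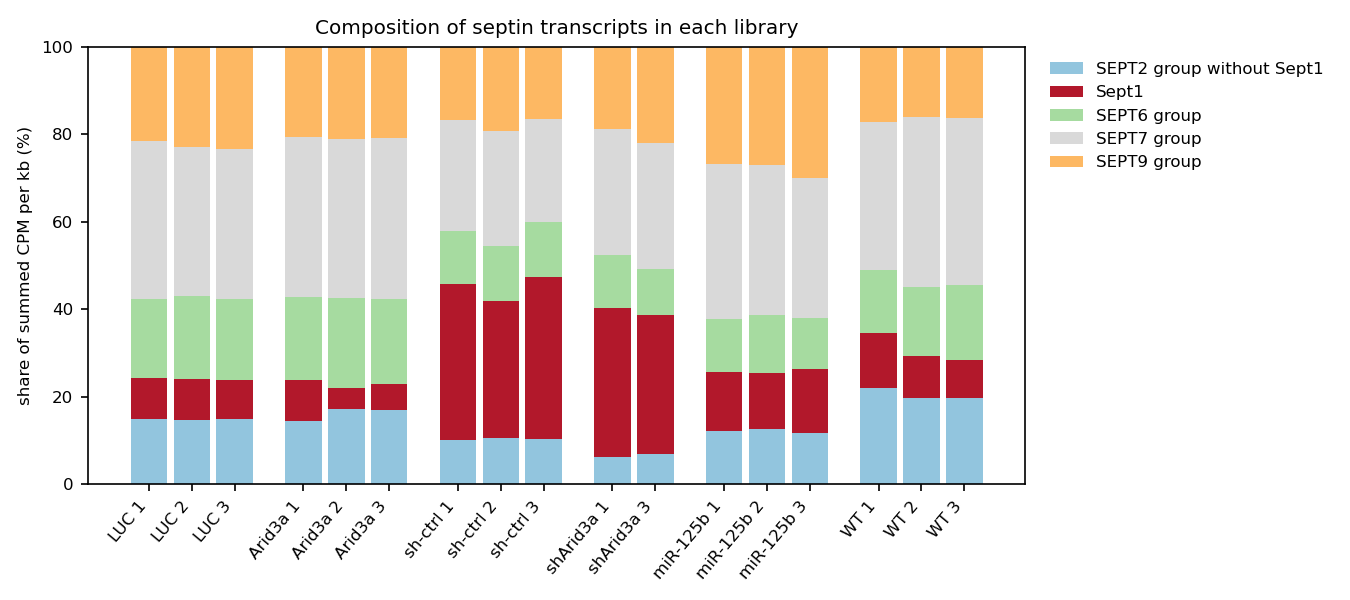
Share (vertical axis, percent) of each homology group in the summed CPM per kb (gene lengths of the tables) of the 9 septins, 1 stacked bar per library with Sept1 drawn apart from the rest of the SEPT2 group. The Sept1 part takes 31.2 to 37.2% in the sh-ctrl and shArid3a libraries and 4.88 to 14.6% in the other 12.

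The other proteins known to bind septins or to work with them in cytokinesis were taken as a list of 27 genes, of which 26 were tested. They comprise Borg proteins, small GTPases, the contractile ring, kinases and linkers. In miR-125b against sh-ctrl, 2 of 26 fell and 0 rose, where 12.2% of all genes fell and 24.4% were called in either direction, so the list held no more calls than genes at large. Cit, the citron kinase of the cleavage furrow, went from 69.0 ± 12.49 to 32.1 ± 3.04 CPM (SD, n = 3 each; log2 fold change -1.11, SE 0.20, edgeR adjusted p = 0.00739). Cdc42ep5, a Borg protein that binds septin rods, went from 3.62 ± 1.06 to 1.08 ± 0.549 CPM (-1.73, SE 0.45, edgeR adjusted p = 0.0235). In the libraries labelled Arid3a edgeR called 0 of 26, with 6 at an unadjusted p under 0.05 (21.4% of all genes) and 5 called by DESeq2 (10.1% of all genes). In shArid3a against sh-ctrl edgeR called 0, with 8 at an unadjusted p under 0.05 (25.8% of all genes) and 4 by DESeq2 (11.4% of all genes). Between miR-125b and shArid3a it called 0, with 2 (14.5% of all genes) and 1 (5.26% of all genes). The list median was 0.05 in the table of LUC and Arid3a, where all genes had 0.01. Against sh-ctrl it was 0.14 for shArid3a and -0.11 for miR-125b, where all genes had -0.02 and -0.03, and between these 2 groups it was -0.15, where all genes had -0.01.

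Genes most like Sept1 were ranked by Pearson r over the 14 Gata1s libraries, on log2 CPM with the mean of each table subtracted, among 8433 genes. These r values are descriptions, since the libraries of a group share their treatment and the ranking takes extremes. The highest were Tube1, epsilon tubulin, at 0.95, Cacfd1 at 0.95, Pygl, the liver form of glycogen phosphorylase, at 0.94, Zdhhc24 at 0.94 and Hexim2 at 0.93. Tube1 was at 13.4 ± 1.06 CPM in sh-ctrl and 7.61 ± 0.683 CPM in miR-125b, and Pygl at 136 ± 38.5 and 37.9 ± 12.6 CPM (SD, n = 3 each). The lowest were Ubl3 at -0.94, the spastin gene Spast at -0.92 and Hs2st1 at -0.92. Among the septins, r with Sept1 was 0.73 for Sept8, 0.58 for Sept11, 0.13 for Sept7, 0.09 for Sept5, -0.09 for Sept6, -0.23 for Sept2 and -0.42 for Sept9. Within the 6 libraries of LUC and Arid3a alone the r of Sept8 was -0.18 and that of Sept11 -0.75, against 0.83 and 0.82 within the 8 libraries of the other table, so neither pair kept its sign across the tables. Nor did Sept5 (-0.88 and 0.48), Sept6 (0.27 and -0.26), Sept7 (-0.04 and 0.18) and Sept9 (0.68 and -0.57). Only Sept2 kept its sign (-0.70 and -0.18).

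Annotated neighbours overlap several septins, and of these only the counts of Gp1bb, given above, and of Zfp553 were looked at. Zfp553, a zinc finger gene on the other strand, shares exons with Sept1. It was at 25.9, 38.7 and 30.9 CPM in sh-ctrl and at 22.2, 34.7 and 31.8 CPM in miR-125b, so the groups overlapped (log2 fold change -0.11, SE 0.21, edgeR adjusted p = 0.737). Sept6 shares exons with the antisense gene Gm15008, and Sept9 overlaps the antisense gene Gm16045 outside its exons. The counts of Gm15008 and Gm16045 were not looked at, so their part in the Sept6 and Sept9 values was not tested. Sept7 shares exons with the pseudogene Gm48272 on the other strand, which has no counts in these data. Whether the counting used strand is not given in the sources used here, so reads of genes on opposite strands may not have been told apart.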

How the data were processed

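RNA from 17 libraries was measured by sequencing. The deposited tables hold raw counts per gene; the submitters' processing notes name fastp, HISAT2 2.0.5, featureCounts and mm10, without roles or strand. Tables were joined by Ensembl identifier, since the symbols of 1 table were partly altered, and 47224 of 47832 genes matched GENCODE M21. Counts were scaled by TMM, filtered by filterByExpr and tested with edgeR 4.0.16 (R 4.3.3; quasi-likelihood, 1 term per group, each table apart), with Benjamini-Hochberg adjustment over all genes and calls at an adjusted p under 0.05. Log scales used a prior count of 2. DESeq2 1.42.0, other scalings and filters, a replicate block and leaving out each library were alternatives. The script was tested on simulated data. The members and gene lists were chosen with earlier results of these data known. All 9 septins are named, as are the septin partners that edgeR called. Of the marker lists only some genes are named, called or not. Genes like Sept1 are the 5 highest and 3 lowest r. Same-numbered miR-125b and sh-ctrl libraries deviated together with r 0.15 to 0.43 over genes, and those of other numbers had r -0.36 to 0.21. For LUC and Arid3a the ranges were 0.01 to 0.36 and -0.34 to 0.20. The libraries may thus be paired by number, but the labels give replicate numbers only. The main fits have no term for pairing, and the replicate block is the alternative that has one.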

Additional observations from a re-analysis of the deposited data

How the results depend on the processing

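The number of septins called for the libraries labelled Arid3a against LUC was 0 in the edgeR fit, 1 with DESeq2 and 0 to 2 when 1 library was left out (2, Sept1 and Sept6, without Arid3a replicate 1). The Sept1 log2 fold change ranged from -0.75 to -0.24 when 1 library was left out. For shArid3a against sh-ctrl the number was 0, and it was 1 (Sept2) with library totals, with DESeq2 and without the low-count filter. For miR-125b against shArid3a it was 1, and 2 with DESeq2. With library totals the Sept1 log2 fold change for miR-125b against sh-ctrl was -1.95 in place of -1.75, while the median of all genes moved from -0.03 to -0.22. Fits with replicate number as a block called 0, 0, 3 and 1 septins in the 4 comparisons and changed no septin call. They called 0, 15, 3687 and 255 genes.

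Counts of genes called moved with the method. Arid3a against LUC gave 0 by edgeR, 71 without the filter and 1359 with DESeq2. For shArid3a against sh-ctrl the 12 calls became 0 without the ribosomal RNA-like genes, 20 with library totals, 19 with the robust fit, 19 with at least 10 counts in every library, 1237 without the filter and 1600 with DESeq2. For miR-125b against shArid3a the 189 became 715 without the filter and 737 with DESeq2. Leaving out 1 library gave 0 to 3198 for Arid3a against LUC (3198 without Arid3a replicate 1), 2 to 11 for shArid3a against sh-ctrl, 734 to 2872 for miR-125b against sh-ctrl in place of 3414 (734 without sh-ctrl replicate 3; leaving out miR-125b libraries 1, 2 and 3 gave 1766, 2229 and 2032), and 12 to 329 for miR-125b against shArid3a (12 without shArid3a replicate 1, 109 without its replicate 3, 26 without miR-125b replicate 2, 70 without replicate 3 and 329 without replicate 1 of miR-125b). The shares of all genes called rest on these counts. With fewer libraries a fit has fewer degrees of freedom; the cause beyond that was not tested. A length from all exons, added after the data were seen, moved Sept7 in sh-ctrl from 72.9 to 15.9 CPM per kb and Sept5 from 1.11 to 0.6 CPM per kb.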
